A study of Mus musculus with 12 samples.

Results

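The SLC25 carriers and their relatives form the largest group of transport proteins in the inner mitochondrial membrane. The set described here holds every gene in the count table whose mouse symbol begins with Slc25a, together with Ucp2, Ucp3, Mtch1 and Mtch2. Members were taken by gene symbol, with earlier results of these data already known, and there are 42 among the 15113 genes of the table, of which 41 had enough counts to be tested among 12730 genes. The cells were C2C12 myotubes, made by growing this mouse myoblast line until confluent and then replacing fetal bovine serum with horse serum at a lower concentration. The first group received 20 μM BAM15 dissolved in DMSO and the second received the vehicle, in both cases for 16 h, and 6 libraries of each were sequenced. BAM15 is a small molecule that carries protons across the inner mitochondrial membrane and so uncouples respiration from ATP synthesis. The line is a single cell line and not a muscle, the labels do not say whether the libraries came from separate cultures, and the p-values measure only the spread between these libraries.

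A carrier of this family binds a solute on one face of the inner membrane and releases it on the other, usually in exchange for a second solute. ADP/ATP exchange, phosphate entry, the malate-aspartate shuttle, citrate export, carnitine-linked fatty acid entry and iron delivery to heme synthesis all depend on members of the family. The uncoupling proteins are members too, named after the brown fat protein that lets protons back into the matrix without making ATP, and MTCH1, MTCH2 and SLC25A46 are members that sit in the outer membrane instead. In muscle the ADP/ATP carrier SLC25A4 and the phosphate carrier SLC25A3 supply ATP synthase with its substrates.

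RNA was measured by QuantSeq, which reads only the 3′ end of a polyadenylated transcript, so that a count does not grow with transcript length. Levels are given as CPM, a gene's reads divided by the TMM-scaled library size, except for the marker sums below. Between 13983725 and 18866728 reads per library were counted on genes. Changes are log2 fold changes of BAM15 over vehicle with their standard error (SE), and come with p-values of edgeR's quasi-likelihood test after Benjamini-Hochberg adjustment across the 12730 tested genes. A member is said to have risen or fallen when its adjusted p was below 0.01. The BAM15 libraries numbered 4 to 6 stood apart from those numbered 1 to 3, with 24.2% of all tested genes differing between them at this threshold against 0 genes between the vehicle libraries with the same numbers, where 696 had an unadjusted p below 0.05. The labels give these numbers without naming a batch. Values within each set of numbers are given below for part of the members. The marker sums given here divide reads by the library size alone, without TMM factors. Those factors were 0.932 to 0.980 in BAM15 libraries 1 to 4 and 1.01 to 1.04 in vehicle libraries. The sums are therefore not on the scale of the other levels, and their ranges were not compared after TMM scaling. All 14 myotube markers were detected, and 2 of them rose and 3 fell. That is 35.7% changed, where 42.3% of all tested genes changed (22.0% rose and 20.3% fell). Their summed level was 28020 to 34154 CPM with BAM15 and 30608 to 34780 CPM with vehicle. Of 10 markers of undifferentiated myoblasts 9 were listed, with a lower sum of 283 to 335 CPM after BAM15 against 489 to 545 CPM. Among these 9, 1 rose (Myf5) and 5 fell, or 66.7% changed. Of 10 adipocyte markers 3 were listed, and Fabp4 did not exceed 3 counts in any library, whereas Pparg rose (log2 fold change 2.68, adjusted p = 0.00015) and Dio2 fell (−0.38, adjusted p = 2.14e-05). Their sum was 92.9 to 126 CPM with BAM15 and 138 to 148 CPM with vehicle. Dio2 made up most of this sum, with TMM-scaled means of 139 CPM with vehicle and 107 CPM with BAM15. Pparg had means of 0.751 and 4.87 CPM. Whether these shifts bear on the carriers was not tested, and in such bulk samples fewer cells of a type and less RNA per cell cannot be told apart.

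Exposure to BAM15 changed 19 of the 41 tested members, or 46.3%, where 42.3% of all tested genes changed. Of these, 11 rose, against a background of 22.0%, and 8 fell, against 20.3%. The share of changed members therefore lay near that of genes at large. The median log2 fold change of the members was 0.12, that of all genes 0.02, and the median size of the change regardless of sign was 0.40 for members and 0.32 for all genes. With the thresholds of the study (adjusted p below 0.01, a mean of more than 50 normalized counts and more than 2-fold), 3 members were higher (Slc25a37, Slc25a33 and Slc25a53), where 3.70% of all genes were, and 1 was lower (Slc25a10), where 3.58% were. For 16 members every BAM15 library lay outside the vehicle range on the same side, which was so for 34.2% of all genes. All 6 BAM15 libraries lay above, or all 6 below, the vehicle mean in the 19 changed members and also in 6 of the 22 that did not pass. The remaining member, Slc25a42, which carries coenzyme A, was too sparse to test, with 6 to 36 counts per BAM15 library and 3 to 10 per vehicle library.

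**Figure D1:**
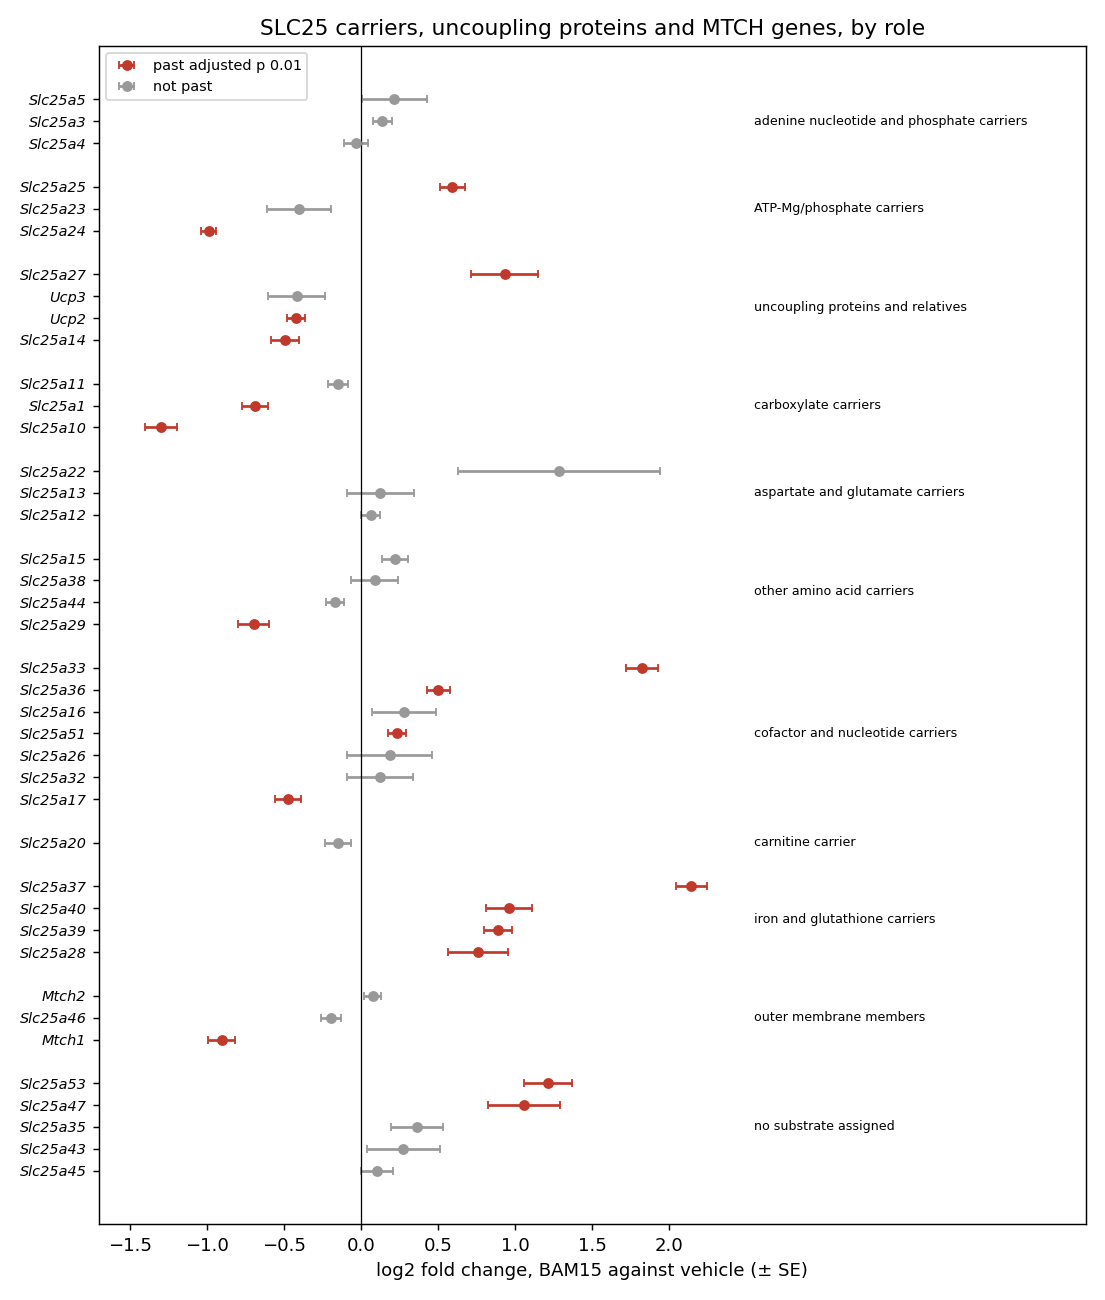
Log2 fold change of 40 of the 41 tested members after BAM15 (horizontal axis, bars show the standard error, n = 6 libraries per group), grouped by what the carrier moves; red points passed an adjusted p of 0.01 and grey points did not. All 4 iron and glutathione carriers lie to the right of 0, led by Slc25a37 at 2.14, and Slc25a10 lies farthest to the left at −1.30.

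The carriers of iron and of glutathione, 2 genes for each substrate, rose in 4 of 4 cases, where 22.0% of all tested genes rose, and their median log2 fold change was 0.93. The call of 1 of them, Slc25a28, was lost in 7 of 22 settings. Slc25a37 (chromosome 14, 69241848 to 69285112, GRCm38) encodes mitoferrin 1, which brings iron into the matrix for heme and iron-sulfur cluster synthesis. Its vehicle libraries held 55.3 to 68.3 CPM with a median of 60.5, and its BAM15 libraries held 214 to 329 CPM with a median of 250. The groups were far apart, and the change was the largest of any member at 4.42-fold (log2 fold change 2.14, SE 0.10, adjusted p = 1.76e-10). It was 2.28 within library numbers 1 to 3 and 1.97 within numbers 4 to 6. Slc25a28 (chromosome 19, 43663801 to 43674881) encodes mitoferrin 2, the form that most tissues other than developing red cells use. It stood at 6.22 to 8.30 CPM with vehicle (median 7.50) and 7.60 to 19.3 CPM with BAM15 (median 11.3), so that the ranges met. Its rise was 1.69-fold (log2 fold change 0.76, SE 0.20, adjusted p = 0.0044) and was uneven, at 0.32 in numbers 1 to 3 and 1.10 in numbers 4 to 6. Slc25a28 did not pass within numbers 1 to 3 alone (adjusted p = 0.0858) or when certain libraries were left out, with adjusted p of 0.0106 without BAM15 library 6, 0.0117 without vehicle library 1 and 0.0121 without vehicle library 5.

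Slc25a39 and Slc25a40 encode a related pair of carriers that bring glutathione into the matrix. Slc25a39 (chromosome 11, 102402985 to 102407946) had 144 to 172 CPM with vehicle (median 154) and 237 to 335 CPM with BAM15 (median 293). No library overlapped, and the rise was 1.85-fold (log2 fold change 0.89, SE 0.09, adjusted p = 8.81e-07). The log2 fold change was 1.04 within numbers 1 to 3 and 0.70 within numbers 4 to 6. Slc25a40 (chromosome 5, 8422850 to 8454797) was far less abundant, at 2.08 to 3.84 CPM with vehicle (median 2.80) and 4.48 to 6.72 CPM with BAM15 (median 5.55). It too separated completely, with a rise of 1.95-fold (log2 fold change 0.96, SE 0.15, adjusted p = 6.5e-05).

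Of the 8 tested carriers of cofactors and nucleotides, 3 rose and 1 fell, where 22.0% of all tested genes rose and 20.3% fell. Slc25a33 (chromosome 4, 149744036 to 149774277) and Slc25a36 (chromosome 9, 97074961 to 97111157) both encode carriers of pyrimidine nucleotides, which the matrix needs to copy and transcribe mitochondrial DNA. Slc25a33 had 5.85 to 7.93 CPM with vehicle (median 6.21) and 20.1 to 26.9 CPM with BAM15 (median 22.2). The ranges lay far apart, at 3.53-fold (log2 fold change 1.82, SE 0.10, adjusted p = 1.33e-09), and the change was similar within numbers 1 to 3 (1.75) and numbers 4 to 6 (1.87). Slc25a36 had 22.9 to 26.6 CPM with vehicle (median 25.5) and 31.8 to 41.6 CPM with BAM15 (median 34.8), a smaller rise of 1.42-fold (log2 fold change 0.50, SE 0.07, adjusted p = 4.21e-05) that also left no overlap. Slc25a51, which carries NAD, rose by a log2 fold change of 0.24 (SE 0.06, adjusted p = 0.00358) from 79.5 to 92.4 CPM with vehicle to 92.6 to 112 CPM with BAM15. Its call was lost without vehicle library 2 (adjusted p 0.0115), 4 (0.0102) or 6 (0.0101) and with library size as the only scaling (0.0458). Slc25a17, whose product sits in the peroxisome rather than the mitochondrion, fell by 0.47 on the log2 scale (SE 0.08, adjusted p = 0.000224). Slc25a16 (log2 fold change 0.28), Slc25a26 (0.18), which carries S-adenosylmethionine, and Slc25a32 (0.12), which carries folate or flavin, did not pass, and the estimates for Slc25a26 and Slc25a32 turned negative without BAM15 library 5, at −0.060 and −0.044. Exons of Lrig1 on the other strand lie over 144 of the final 400 bases of Slc25a26.

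The sequences upstream of members that moved were read from RefSeq (GRCm38.p6), which lists 43 promoters for 33 of the 42 members among 32851 promoters in all. Slc25a37 has no entry there. In the 250 bases before each start, 8 short motifs were searched on both strands. The promoters of Slc25a33 and Slc25a36 are shown because both are pyrimidine nucleotide carriers that rose, and that of Slc25a25 because it and Slc25a36 hold the only matches among members to the cAMP response element. Capitals mark matches to TGACGTCA (cAMP response element), CACGTG (E-box), TGACNNNGC (antioxidant response element) or CCAAT, on either strand, and each is printed 5′ to 3′ toward the gene on the minus strand.
Slc25a33, chr4:149774268-149774517: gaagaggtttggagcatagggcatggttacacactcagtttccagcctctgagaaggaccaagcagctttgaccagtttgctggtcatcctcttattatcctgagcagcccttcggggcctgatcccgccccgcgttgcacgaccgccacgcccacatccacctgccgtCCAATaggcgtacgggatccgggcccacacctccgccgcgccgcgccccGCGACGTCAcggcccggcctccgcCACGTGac
Slc25a36, chr9:97111042-97111291: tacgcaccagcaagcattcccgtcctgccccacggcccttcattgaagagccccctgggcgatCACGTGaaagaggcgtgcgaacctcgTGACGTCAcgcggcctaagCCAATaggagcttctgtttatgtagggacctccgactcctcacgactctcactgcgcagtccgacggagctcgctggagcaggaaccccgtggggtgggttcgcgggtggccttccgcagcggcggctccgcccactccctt
Slc25a25, an inner start of the gene, chr2:32424067-32424316: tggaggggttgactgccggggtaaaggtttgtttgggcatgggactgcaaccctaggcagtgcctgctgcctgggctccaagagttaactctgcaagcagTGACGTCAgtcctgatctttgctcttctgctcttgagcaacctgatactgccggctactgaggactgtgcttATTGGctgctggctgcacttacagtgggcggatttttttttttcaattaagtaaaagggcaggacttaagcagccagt
The capitals in Slc25a33 are CCAAT, an antioxidant element on the other strand and an E-box at its 3′ end. Those in Slc25a36 are an E-box, the cAMP element and CCAAT, and those in Slc25a25 are the cAMP element and CCAAT on the other strand. TGACGTCA was found in 2 of the 43 member promoters and in 1.55% of all promoters. CACGTG was found in 7 member promoters, of Slc25a1, Slc25a13, Slc25a14, Slc25a15, Slc25a33 and Slc25a36, and in 6.02% of all. TGACNNNGC was found in 11 and in 10.2% of all, including Slc25a25 and Slc25a33 (risen) and Slc25a14 and Ucp2 (fallen). CCAAT was found in 18 member promoters and in 33.8% of all, CCGGAAG (an ETS site) in 6 and in 6.91%, and TCACNCCAC (a sterol element) in 2, of Mtch2 and Ucp2, and in 1.05%. TGATGNAA, part of the composite element read by ATF4 and C/EBP factors, was in 0 of the 43 windows and in 3.45% of all, and the palindromic NRF1 site was in 0 and in 0.782%. A match describes letters in a window and not a bound site.

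The calcium-regulated ATP-Mg/phosphate carriers, which set the size of the adenine nucleotide pool in the matrix, moved apart. Slc25a24 (chromosome 3, 109123149 to 109168457) had 150.1 to 162 CPM with vehicle (median 156) and 72.5 to 82.1 CPM with BAM15 (median 79.3). This was among the tightest separations in the set, at 1.99-fold lower (log2 fold change −0.99, SE 0.05, adjusted p = 1.55e-10), and nearly the same within numbers 1 to 3 (−1.02) and 4 to 6 (−0.98). Slc25a25 (chromosome 2, 32414487 to 32451445), a second carrier of the same kind, had 6.79 to 8.23 CPM with vehicle (median 7.48) and 10.4 to 12.5 CPM with BAM15 (median 11.3). Its libraries did not overlap either, and it rose 1.51-fold (log2 fold change 0.59, SE 0.08, adjusted p = 1.48e-05). Slc25a23, the third carrier of the kind, had a log2 fold change of −0.40 (SE 0.21, adjusted p = 0.114).

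**Figure D2:**
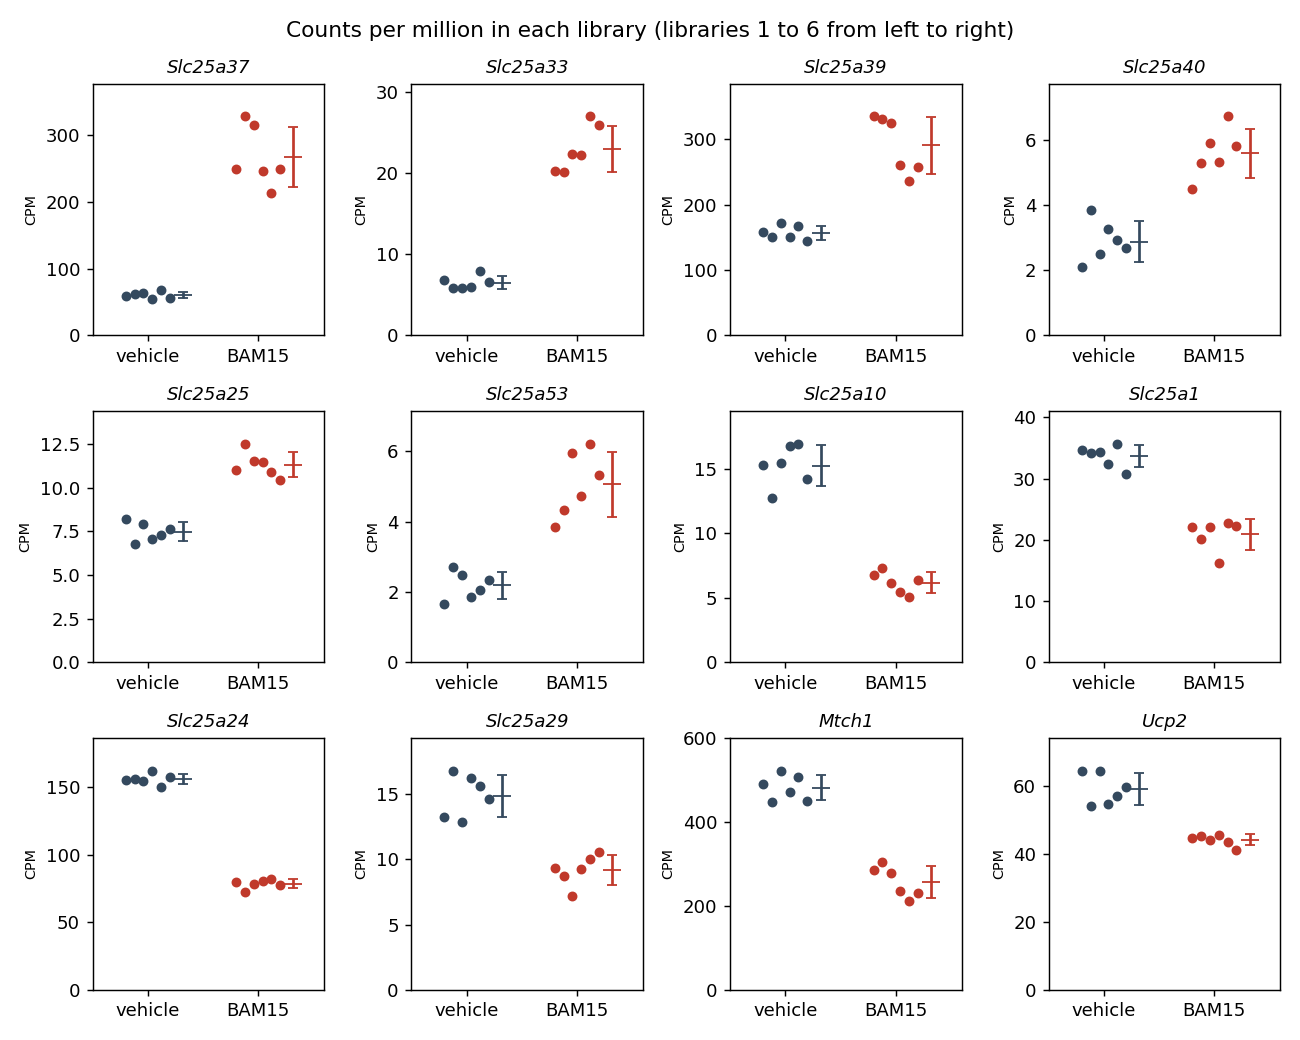
Level of 12 members in each library (vertical axes, TMM-scaled CPM), with a point for each of the 6 vehicle and 6 BAM15 libraries in the order of their numbers and a bar for the mean ± SD. The 12 panels were all picked from the 16 members whose BAM15 and vehicle libraries did not overlap, which was so for 34.2% of all genes. Slc25a37 rose from at most 68.3 to at least 214 CPM, and Slc25a24 fell from at least 150.1 to at most 82.1 CPM.

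Carboxylate carriers fell in 2 of 3 tested genes, where 20.3% of all tested genes fell. Slc25a10 (chromosome 11, 120491840 to 120499187), which exchanges malate or succinate for phosphate, had 12.8 to 17.0 CPM with vehicle (median 15.4) and 5.05 to 7.28 CPM with BAM15 (median 6.26). The groups did not meet, and this was the largest fall of any member at 2.46-fold (log2 fold change −1.30, SE 0.10, adjusted p = 5.71e-08), with −1.11 in numbers 1 to 3 and −1.52 in numbers 4 to 6. Slc25a1 (chromosome 16, 17925223 to 17928219), which exports citrate for fatty acid and sterol synthesis, had 30.8 to 35.7 CPM with vehicle (median 34.3) and 16.2 to 22.8 CPM with BAM15 (median 22.1). It was 1.61-fold lower without overlap (log2 fold change −0.69, SE 0.08, adjusted p = 4.65e-06). Slc25a11, the oxoglutarate-malate carrier of the malate-aspartate shuttle, did not pass, at −0.15 (adjusted p = 0.0632).

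Among uncoupling proteins and the carriers most like them, 1 of 4 tested genes rose and 2 fell, against 22.0% and 20.3% of all genes. Ucp2 (chromosome 7, 100493337 to 100502020) was the abundant one, with 54.0 to 64.5 CPM with vehicle (median 58.5) and 41.2 to 45.7 CPM with BAM15 (median 44.5). Every BAM15 library was below every vehicle library, a fall of 1.34-fold (log2 fold change −0.42, SE 0.06, adjusted p = 2.6e-05) that was alike in numbers 1 to 3 (−0.45) and 4 to 6 (−0.41). Dnajb13, which runs the other way, has exons over 305 of the final 400 bases of Ucp2, and the strand used in counting is not given in the sources used here. Ucp3 (chromosome 7, 100472990 to 100486432), the form typical of skeletal muscle, was near the lower end of detection at 0.854 to 1.24 CPM with vehicle (median 1.08) and 0.621 to 0.945 CPM with BAM15 (median 0.803). Its groups overlapped and its log2 fold change, −0.42, was not past the threshold (SE 0.19, adjusted p = 0.0818, 95% interval of the difference −0.83 to −0.002). Ucp1 was not analysed here. Slc25a14 (UCP5) fell by 0.50 on the log2 scale (SE 0.09, adjusted p = 0.000311) without overlap. Slc25a27 (UCP4), by contrast, was higher, at 1.44 to 2.13 CPM with vehicle (median 1.64) and 2.11 to 4.63 CPM with BAM15 (median 2.94). Its ranges just met, and its log2 fold change of 0.93 (SE 0.22, adjusted p = 0.00199) was 0.44 in numbers 1 to 3, where it did not pass (adjusted p = 0.124), and 1.29 in numbers 4 to 6.

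None of the 3 tested carriers of ADP, ATP and phosphate passed the threshold over all 12 libraries, among them Slc25a3 and Slc25a4, the most abundant members in vehicle libraries. Slc25a4, the muscle ADP/ATP carrier, had 697 to 729 CPM with vehicle (median 711) and 594 to 827 CPM with BAM15 (median 678). The BAM15 libraries spread on both sides of the vehicle range (log2 fold change −0.03, SE 0.08, adjusted p = 0.747, 95% interval −0.21 to 0.14). Within numbers 1 to 3 alone the change was −0.20 and passed the threshold (adjusted p = 0.00362). Within numbers 4 to 6 it was 0.10 and did not pass (adjusted p = 0.300). Slc25a5, the more widely used ADP/ATP carrier, had 56.0 to 73.6 CPM with vehicle (median 61.5) and 44.7 to 130 CPM with BAM15 (median 67.3). Its estimate of 0.21 (SE 0.21, adjusted p = 0.418, interval −0.26 to 0.68) became −0.021 without BAM15 library 5. The estimate was −0.15 in numbers 1 to 3 and 0.46 in numbers 4 to 6. Of the 351 windows of 50 bases at the end of its transcript, 31 also occur in Gm5560 or the pseudogene Slc25a5-ps, so its count is less certain. Slc25a3, the phosphate carrier, had 772 to 908 CPM with vehicle (median 840.2) and 849 to 1047 CPM with BAM15 (median 922). All 6 BAM15 libraries were above the vehicle mean, but the groups overlapped and the log2 fold change of 0.14 (SE 0.06) had an adjusted p of 0.0718.

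Carriers of aspartate and glutamate did not pass in any of 3 tested genes, where 42.3% of all tested genes passed. Slc25a12, the calcium-sensitive carrier of the malate-aspartate shuttle in muscle and brain, had 61.3 to 73.4 CPM with vehicle (median 67.2) and 63.9 to 75.5 CPM with BAM15 (median 69.9), a log2 fold change of 0.06 (SE 0.06, adjusted p = 0.409, interval −0.07 to 0.19) from overlapping groups, whose sign turned with library size as the only scaling (−0.0029). Its liver form Slc25a13 was scarce, at 0.610 to 1.13 CPM with vehicle (median 0.949) and 0.759 to 1.39 CPM with BAM15 (median 0.860), and gave 0.12 (SE 0.22, adjusted p = 0.654, interval −0.36 to 0.61). Slc25a22, a glutamate carrier, had a median of 0.779 CPM with vehicle and 1.16 CPM with BAM15, and BAM15 library 5 alone reached 6.16. The estimate, 1.28 on the log2 scale, was not past the threshold (SE 0.66, adjusted p = 0.118). Slc25a18 was not analysed here.

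The other amino acid carriers gave 1 fall among 4 tested genes, where 20.3% of all tested genes fell. Slc25a29 (chromosome 12, 108825873 to 108835883), a carrier of basic amino acids, had 12.8 to 16.8 CPM with vehicle (median 15.1) and 7.17 to 10.6 CPM with BAM15 (median 9.29). Its groups were separate, and it was 1.62-fold lower (log2 fold change −0.70, SE 0.10, adjusted p = 3.93e-05). Slc25a15, which carries ornithine, Slc25a38, which carries glycine for heme synthesis, and Slc25a44, which carries branched-chain amino acids, did not pass (0.22, 0.09 and −0.17). Slc25a38 was −0.23 in numbers 1 to 3 and 0.34 in numbers 4 to 6. Slc25a20, the carnitine-acylcarnitine carrier that admits long-chain fatty acids, had 21.2 to 25.5 CPM with vehicle (median 23.2) and 17.0 to 24.4 CPM with BAM15 (median 20.9). Its log2 fold change, −0.15, was not past the threshold (SE 0.09, adjusted p = 0.158, interval −0.34 to 0.04). This estimate was −0.31 in numbers 1 to 3 (adjusted p = 0.0123) and −0.008 in numbers 4 to 6 (adjusted p = 0.957).

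The outer membrane members gave 1 fall among 3 tested genes, where 20.3% of all tested genes fell. Mtch1 (chromosome 17, 29332072 to 29347934) had 448 to 522 CPM with vehicle (median 482) and 211 to 305 CPM with BAM15 (median 256). Its product is the close relative of MTCH2 in the outer membrane. No libraries overlapped, and the fall of 1.87-fold (log2 fold change −0.90, SE 0.09, adjusted p = 4.77e-07) was −0.75 in numbers 1 to 3 and −1.09 in numbers 4 to 6. Mtch2 (chromosome 2, 90847155 to 90866810), which inserts helical proteins into the outer membrane, had 237 to 270 CPM with vehicle (median 253) and 249 to 289 CPM with BAM15 (median 271), with overlapping groups and a log2 fold change of 0.08 (SE 0.05, adjusted p = 0.254, interval −0.04 to 0.20). Slc25a46, which acts in mitochondrial dynamics and lipid traffic, was at −0.20 (adjusted p = 0.0148).

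Of 5 tested members without an agreed substrate, 2 rose, where 22.0% of all tested genes rose. Slc25a53 (chromosome X, 136981116 to 137038302) had 1.67 to 2.71 CPM with vehicle (median 2.21) and 3.85 to 6.22 CPM with BAM15 (median 5.03), a complete separation of 2.31-fold (log2 fold change 1.21, SE 0.16, adjusted p = 1.14e-05). Slc25a47 (chromosome 12, 108836046 to 108856815), best known from liver, had 0.748 to 1.58 CPM with vehicle (median 1.05) and 1.44 to 3.50 CPM with BAM15 (median 2.35). Its ranges met, its mean of 29.3 normalized counts was below the threshold of 50, and it rose 2.08-fold (log2 fold change 1.06, SE 0.23, adjusted p = 0.00142). Slc25a35, Slc25a43 and Slc25a45 did not pass, at 0.36, 0.27 and 0.10. Slc25a45 was 0.32 in numbers 1 to 3 and −0.15 in numbers 4 to 6.

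**Figure D3:**
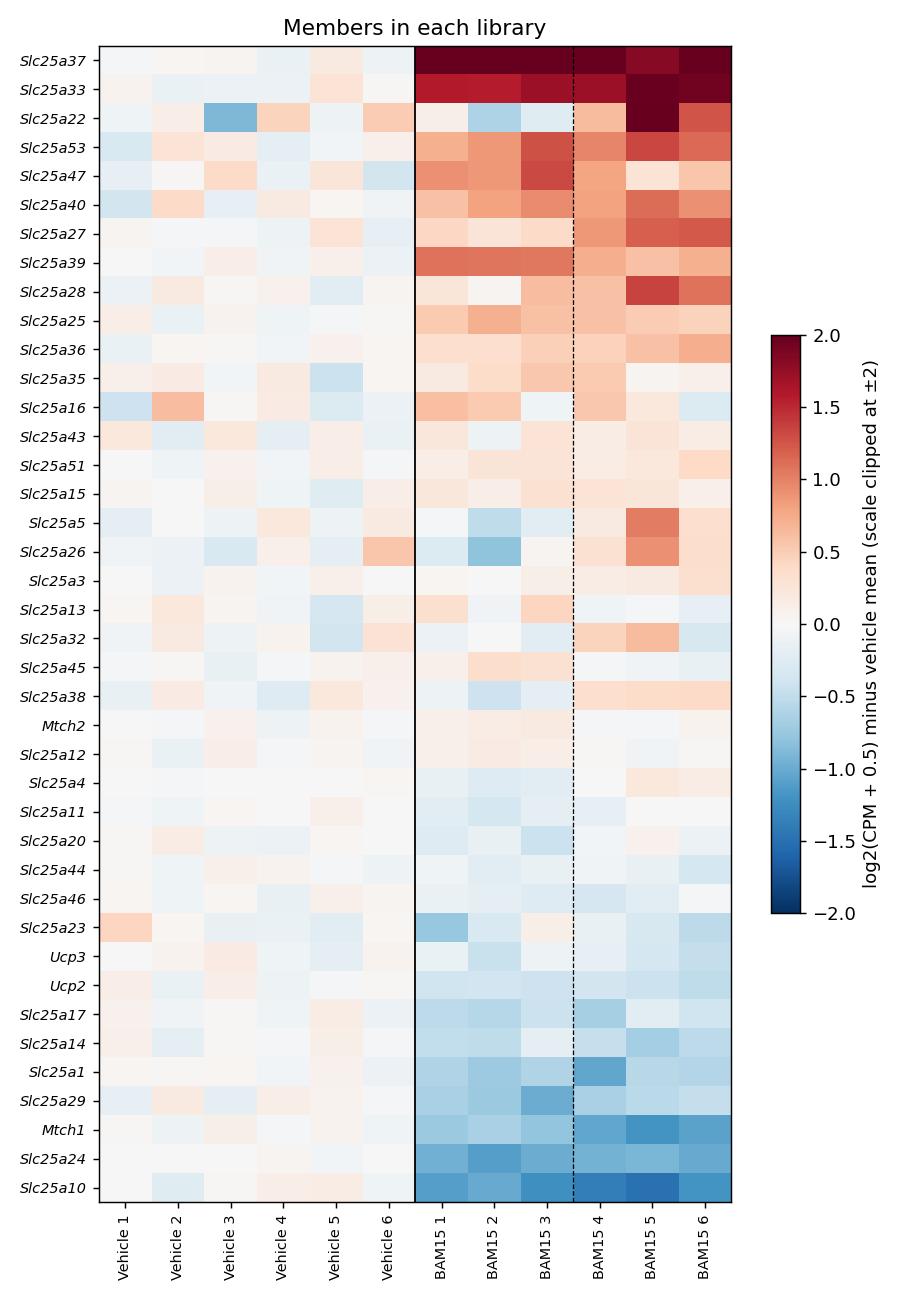
Level of 40 of the 41 tested members in each library as log2(CPM + 0.5) minus the mean of the vehicle libraries (colour, limited to ±2), with members in rows ordered by fold change and the 6 vehicle libraries before the 6 BAM15 libraries. The dashed line parts BAM15 libraries 1 to 3 from 4 to 6. Slc25a37 and Slc25a33 at the top and Slc25a24 and Slc25a10 at the bottom keep their colour on both sides of it. The next row from the top, Slc25a22, does not, with a log2 fold change of 0.04 in numbers 1 to 3 and 1.67 in numbers 4 to 6.

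The spread among BAM15 libraries touched part of the set. Between numbers 4 to 6 and 1 to 3, 8 of 41 members differed at an adjusted p below 0.01, against 24.2% of all genes. Higher in numbers 4 to 6 were Slc25a4, Slc25a22, Slc25a26, Slc25a27, Slc25a28 and Slc25a38, and lower were Mtch1 and Slc25a39. The vehicle libraries with these numbers differed in 0 members, with 0 at an unadjusted p below 0.05. In edgeR's test of whether the BAM15 effect itself differed between the number sets, 0 members passed and 9 had an unadjusted p below 0.05, where 0 of all 12730 genes passed and 3313 had an unadjusted p below 0.05. Within numbers 1 to 3 alone, 9 members rose and 9 fell, where 5730 of all 12898 genes tested there passed. Within numbers 4 to 6 alone 9 rose and 7 fell, where 4265 of 12849 genes passed.

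Pairs of carriers with the same or a related substrate were compared by their ratio within each library, which does not depend on the scaling of libraries apart from the 0.5 CPM added to each level. Of 11 pairs listed, 9 had both members tested, and their p-values are two-sided exact permutation tests over the 12 libraries, where the smallest possible p is 0.00216, adjusted over the 9 pairs. The ratio of Slc25a28 to Slc25a37 had a median of 0.132 with vehicle and 0.0423 with BAM15, a difference of −1.47 on the log2 scale (adjusted p = 0.00487), so mitoferrin 1 gained on mitoferrin 2. The gain was uneven. This log2 ratio was −5.34 to −4.72 in BAM15 libraries 1 to 3 and −4.40 to −3.43 in 4 to 6, against −3.36 to −2.75 with vehicle. Slc25a33 to Slc25a36 went from a median of 0.264 to 0.641 (difference 1.26, adjusted p = 0.00487). Slc25a25 to Slc25a24 went from 0.0517 to 0.145 (1.55, adjusted p = 0.00487), and Slc25a23 to Slc25a24 shifted by 0.66 (adjusted p = 0.00779). Both of these pairs share Slc25a24 and are not independent. As Slc25a25 rose and Slc25a24 fell, each without overlap, their ratio had to separate completely. Its p therefore adds nothing to the single-gene calls. Mtch1 to Mtch2 went from 1.91 to 0.950 (−0.99, adjusted p = 0.00487), so that Mtch1 was the more abundant in vehicle libraries and about level with Mtch2 after BAM15. The other 4 pairs did not pass. Slc25a39 to Slc25a40 stood at a median of 47.3 with vehicle and 47.9 with BAM15 (difference 0.02, exact permutation adjusted p = 0.955), where the sign changed with a smaller pseudocount (−0.069) and between numbers 1 to 3 (0.22) and 4 to 6 (−0.19). Slc25a4 to Slc25a5 differed by −0.18 (exact permutation adjusted p = 0.390), Slc25a12 to Slc25a13 by −0.01 (0.955) and Ucp2 to Ucp3 by −0.14 (0.175).

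**Figure D4:**
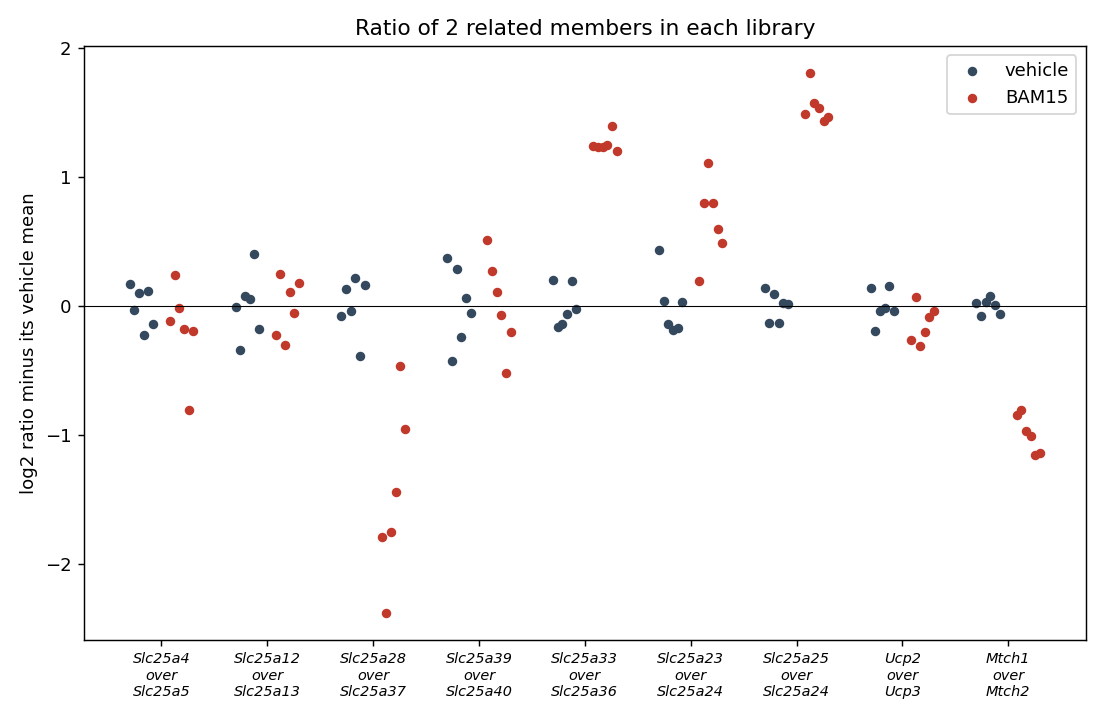
Log2 ratio of 9 pairs of related members in each library minus the vehicle mean (vertical axis), with a point per vehicle or BAM15 library. Slc25a28/Slc25a37 and Mtch1/Mtch2 lie below the vehicle points and Slc25a33/Slc25a36 and Slc25a25/Slc25a24 above them, whereas the points of Slc25a39/Slc25a40 and Slc25a12/Slc25a13 mix.

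In vehicle libraries the family was led by a few genes. Slc25a3 held 24.5% of the family's summed CPM, Slc25a4 20.7%, Mtch1 14.0% and Mtch2 7.42%, which together made 66.7%. At the other end, 38 members exceeded 1 CPM, 22 exceeded 10 CPM and 8 exceeded 100 CPM on the vehicle mean. The sum over the family was 3437 ± 120 CPM with vehicle and 3550 ± 105 CPM with BAM15 (mean ± SD, n = 6), with overlapping ranges of 3282 to 3583 and 3459 to 3723 CPM. The difference of 113 CPM turned to −30.9 with library size as the only scaling.

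The 42 members lie on 18 chromosomes, 4 of them on the X chromosome, and by the GENCODE M21 gene models (GRCm38) 3 pairs of members are neighbours. In these models Slc25a29 and Slc25a47 lie head to head with 162 bases between them, and the first fell while the second rose. The RefSeq promoters of this pair lie farther apart on chromosome 12. That of Slc25a29 spans 108835877 to 108836126 and that of Slc25a47 spans 108850879 to 108851128. Which start of Slc25a47 these cells use, and whether the pair shares a promoter, was not tested. Ucp3 and Ucp2 follow each other on the same strand 6904 bases apart, with equal estimates of −0.42, only the second of which passed. Slc25a43 and Slc25a5 are 18448 bases apart, and neither passed.

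In 5 lists of genes that work beside the carriers, 20.8% to 40% of the tested genes changed, where 42.3% of all tested genes did (22.0% rose and 20.3% fell). In the TIM22 pathway, which inserts carriers into the inner membrane, 2 of 10 tested genes rose and 2 fell, led by Timm8a1 at a log2 fold change of 0.81 (adjusted p = 0.00502) and by Timm22, the channel itself, at −0.61 (adjusted p = 3.1e-05). Timm8a1 was scarce, at a mean of 0.580 CPM with vehicle and 1.02 CPM with BAM15. Timm10, which also rose, had 47.1 and 68.3 CPM (0.54, adjusted p = 1.09e-06). Of 24 other transporters of the mitochondrial membranes, 4 rose and 1 fell, with Vdac3, an outer membrane pore, at 0.65 (adjusted p = 1.52e-06) and Micu2, a regulator of calcium uptake, at −0.28 (adjusted p = 0.00065). Of 18 ATP synthase genes 5 fell, or 27.8% against 20.3% of all genes, the largest fall being Atp5g3, a subunit of the membrane ring, at −0.71 (adjusted p = 0.000262). Among 16 enzymes that use carried substrates, 2 rose and 2 fell. These included Got1, the cytosolic aspartate aminotransferase of the malate-aspartate shuttle, at 1.11 (adjusted p = 2.26e-08), and Acly, which splits exported citrate, at −0.81 (adjusted p = 9.55e-09). Among 9 tested regulators of carrier and uncoupling protein genes, 2 rose and 1 fell. Pparg, a nuclear receptor, had the largest estimate at 2.68 (adjusted p = 0.00015), with 43 to 61 counts in 5 BAM15 libraries and 219 in library 5, and Ppargc1b, a coactivator of mitochondrial genes, fell by 0.31 on the log2 scale (adjusted p = 0.00504).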

How the data were processed

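The members and all gene lists were chosen with earlier results of these data known. C2C12 myotube RNA from 12 libraries (6 BAM15, 6 vehicle) was sequenced with QuantSeq. The authors deposited raw counts per Ensembl gene, processed with BlueBee software, and a normalized signal, which they made with DESeq2 (1.22.2 in the submitters' processing notes) and in which each library's counts are divided by a single size factor. The notes name GRCm38. The aligner, annotation and counting strand are not given in the sources used here. All results rest on the counts, and 11 columns belonging to no labelled sample were not used.

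Counts were analysed in R 4.3.3 with edgeR 4.0.16. The filter filterByExpr removed 2383 genes, TMM factors were 0.932 to 1.04, and a robust quasi-likelihood model with group as its only term was fitted to 12730 genes. SE is the log2 fold change divided by the square root of F, and 95% intervals use 10 residual degrees of freedom. Ratios used log2(CPM + 0.5). Figures were drawn with matplotlib 3.10.9 in Python 3.11.15. Members were named with all their values where they passed an adjusted p of 0.01 at more than 1.5-fold, or were on a short list of core carriers, and the strongest rise and fall was named for each other list. Alternatives were DESeq2 1.42.0, limma-voom (limma 3.58.1), other scalings and filters, a replicate block, libraries left out in turn and each set of library numbers alone. All libraries of a group differed by more than sampling noise. The tests were checked on simulated data. The values of 1 tested member are not reported here, and it is included in the counts.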

Additional observations from a re-analysis of the deposited data

Results flagged for a closer look

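In 5 of 100 groups of 6 values, 1 library stood apart from the rest of its group by Dixon's criterion, which chance gives for about 1 in 20. Slc25a23 was at 2.86 CPM in vehicle library 1, where the nearest vehicle library had 2.08, and its log2 ratio to Slc25a24 was accordingly −5.53 there against −5.93 in the nearest library. Slc25a43 was at 0.447 CPM in BAM15 library 2, where the nearest had 0.621. BAM15 library 5 held 6.16 CPM of Slc25a22 against 2.49 in the nearest, and its log2 ratio of Slc25a33 to Slc25a36 was −0.486 against −0.629.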

How the results depend on the processing

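Of the 19 changed members, 13 passed an adjusted p of 0.01 in all 22 settings, 6 were lost in at least 1 (Slc25a14, Slc25a17, Slc25a27, Slc25a28, Slc25a47 and Slc25a51), and 0 changed sign. Among members that did not pass, 4 passed in at least 1 setting. Slc25a46 did so in 5 settings and Slc25a44 with library size only (adjusted p = 0.00327). Slc25a4 and Slc25a11 did so within numbers 1 to 3 (adjusted p = 0.00362 and 0.005). For members past the 3 thresholds, the 1 lower became 2 with upper quartile scaling, with library size only and within numbers 1 to 3 or 4 to 6, and ranged from 1 to 2 with single libraries left out (2 without BAM15 library 5 or vehicle library 5), and the 3 higher became 5 within numbers 4 to 6. The summed difference became −30.9 CPM with library size only, where the median of all genes moved from 0.02 to −0.04 and the split of called members from 11 higher and 8 lower to 9 and 10. The cause was not tested.

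Sign changes were limited to members and pairs that did not pass. Within numbers 4 to 6 these were Slc25a4 (0.10), Slc25a12 (−0.011), Slc25a13 (−0.0073) and Slc25a45 (−0.15), and within numbers 1 to 3 Slc25a38 (−0.23), Slc25a32 (−0.15), Slc25a26 (−0.16) and Slc25a5 (−0.15). Slc25a12 was −0.0029 with library size only. With single libraries left out, Slc25a4 ranged from −0.088 to 0.0096, Slc25a32 from −0.044 to 0.21, Slc25a26 from −0.060 to 0.34 and Slc25a5 from −0.021 to 0.33. The ratio of Slc25a12 to Slc25a13 ranged from −0.077 to 0.072 and that of Slc25a39 to Slc25a40 from −0.082 to 0.13, the latter being −0.069 with a pseudocount of 0.1 CPM.

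Libraries of both groups share the numbers 1 to 6. Deviations of same-numbered libraries correlated at −0.076 to 0.31, with 4 of 6 over 0.1, and 2 of 6 correlated best with their own number, so the numbers were not taken as pairs. With a replicate block 10 members rose and 8 fell, 3 and 1 past the 3 thresholds, where 5292 of all 12730 genes passed an adjusted p of 0.01. In sign flips of the pairing, with a smallest p of 0.03125, the ratios of Slc25a28/Slc25a37 (−1.47), Slc25a33/Slc25a36 (1.26), Slc25a25/Slc25a24 (1.55), Mtch1/Mtch2 (−0.99) and Slc25a23/Slc25a24 (0.66) had adjusted exact p of 0.0703, and 0.113 for the last. Members near 1 CPM, such as Ucp3 and Slc25a13, are limited by depth.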
